A study of Homo sapiens with 4 samples.

Results

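Thrombospondin and matricellular protein genes were measured by RNA sequencing after shock wave treatment (SWT) and without it, in cells that the labels call SH-SY5Y, a neuroblastoma line of human origin. The 10 genes were chosen by name from the 28058 genes of the deposited count table: THBS1, THBS2, THBS3, SPARC, TNC, POSTN, FN1, SPP1, FBLN1 and EFEMP1. All of them were listed in the table and all passed the filter on low counts. Poly(A) RNA was sequenced from 2 SWT samples, harvested 6 h after treatment, and from 2 control samples that received no treatment. Neither group carries another agent or a genetic change in the labels, and both come from the same cell line in medium with fetal calf serum. SWT consisted of 300 pressure pulses of 0.08 mJ/mm2, given at 3 Hz to medium-filled flasks 7 cm from the applicator in a water bath kept at 37 °C, according to the sample protocols. The design text of the series names exosomes instead, and which of these was applied is not settled by the labels. No label says that the samples of a group are separate cultures; the p-values then measure only how far these samples spread, which may be technical.

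Matricellular proteins are secreted into the extracellular matrix, where they act on cells through surface receptors more than they bear load. Thrombospondins are multidomain glycoproteins that bind integrins, CD47 and CD36, and thrombospondin 1 is known for releasing TGF-beta from its latent complex and for restraining blood vessel growth. In the nervous system, thrombospondins made by astrocytes are known to promote the formation of synapses. Tenascin C, periostin, osteopontin and SPARC are raised in many tissues during wound repair, fibronectin forms the fibrils on which cells migrate, and the fibulins bind elastic fibres and basement membranes.

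The arginine-glycine-aspartate motif (RGD) is the best known integrin-binding site of such proteins, so the codons for it are shown for the genes that hold them. In the longest coding sequence of each gene in GENCODE release 29, 5 of the 10 genes had the motif once and the other 5 (THBS3, SPARC, POSTN, FBLN1 and EFEMP1) had none. Among all 19484 coding genes read in the same way, 1588 (8.15%) had it, and no test was made, since long coding sequences hold more motifs. Each line gives 9 bases on either side, read 5′ to 3′ on the coding strand of GRCh38, with the 3 RGD codons in capitals.
THBS1, codon 926: ggcgatggtCGAGGTGATgcctgcaaa
THBS2, codon 933: ggtgatggaCGGGGTGATatttgtaaa
TNC, codon 877: atctcccgcAGAGGTGACatgtcaagc
FN1, codon 1615: gtcactggcCGTGGAGACagccccgca
SPP1, codon 159: tatgatggcCGAGGTGATagtgtggtt
The codons lie at chr15:39593008-39593016 on the plus strand for THBS1, chr6:169223459-169223467 on the minus strand for THBS2, chr9:115077980-115077988 (minus) for TNC, chr2:215384063-215384071 (minus) for FN1 and chr4:87981733-87981741 (plus) for SPP1. In THBS1 and THBS2 they stand at nearly the same distance from the start, within the coding exons of both genes.

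Libraries held 10043697 and 11686808 counts in SWT and 11647603 and 9888263 counts in control. The label of the cells was set against marker genes. Of 13 mesenchymal neuroblastoma markers, 12 reached 10 CPM (counts scaled to library size with TMM factors) in every library, against 2 of 12 noradrenergic markers. The mesenchymal list holds genes such as COL1A1 and CD44, and passing it does not tell which line the cells are. Of the 12 noradrenergic markers, 7 stayed under 1 CPM in every library. PHOX2A, TH, DBH, CHGA and MYCN, all on the noradrenergic list, had 0 counts in all 4 libraries. Most of the noradrenergic list was thus hardly seen, and whether the cells are the labelled line was not tested. Noradrenergic markers summed to 82.4 and 74.0 CPM in SWT and to 77.2 and 79.0 CPM in control. Heart muscle markers (14 genes) summed to 32.3 and 10.6 CPM in SWT and to 7.84 and 309 CPM in control, so control replicate 2 stood apart, and results are also given without it. Across genes the libraries also differed along GC content, with a Spearman rho of -0.403 for SWT minus control. It was 0.382 for SWT replicate 2 minus 1 and -0.483 for control replicate 2 minus 1 (6293 genes, which are not independent replicates). Along transcript length rho was 0.285 for SWT minus control. For SWT replicate 2 minus 1 it was -0.016, and for control replicate 2 minus 1 it was -0.092.

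All 10 genes were expressed at more than 10 CPM in every library. In bulk RNA, fewer cells that express a gene and less RNA per cell cannot be told apart. Together the 10 genes took 0.564% and 0.586% of the counts in SWT and 0.600% and 0.556% in control. FN1, encoding fibronectin, held rank 23 by CPM among the 12399 genes tested, SPARC rank 37, TNC rank 76 and THBS1 rank 194. Per kilobase of the longest annotated transcript, SPARC was highest at 371 ± 9.34 CPM per kilobase, followed by FN1 at 198 ± 15.6, TNC at 136 ± 12.1, FBLN1 at 102 ± 5.58 and POSTN at 89.3 ± 4.19 CPM per kilobase (SD, n = 4 libraries). THBS1 stood at 78.6 ± 7.78, SPP1 at 49.9 ± 2.76, EFEMP1 at 24.1 ± 1.16, THBS2 at 20.3 ± 0.746 and THBS3 at 18.0 ± 0.974 CPM per kilobase (SD, n = 4 libraries). This order was the same in all 4 libraries. FBLN1 lay above POSTN, and THBS2 above THBS3, within each library, although the ranges of each pair over the 4 libraries overlapped. The order depended on the length used. Per kilobase of the median annotated transcript, the measure set down for this comparison, SPARC (2387 CPM per kilobase) was followed by THBS1 (1111), TNC (782), FN1 (760) and FBLN1 (504), with THBS3 (32.7) last. That median is short where many annotated transcripts are fragments, 550 bases for THBS1 against 7775 for its longest transcript. SPARC came first and THBS3 last by each of the 3 length measures.

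**Figure D1:**
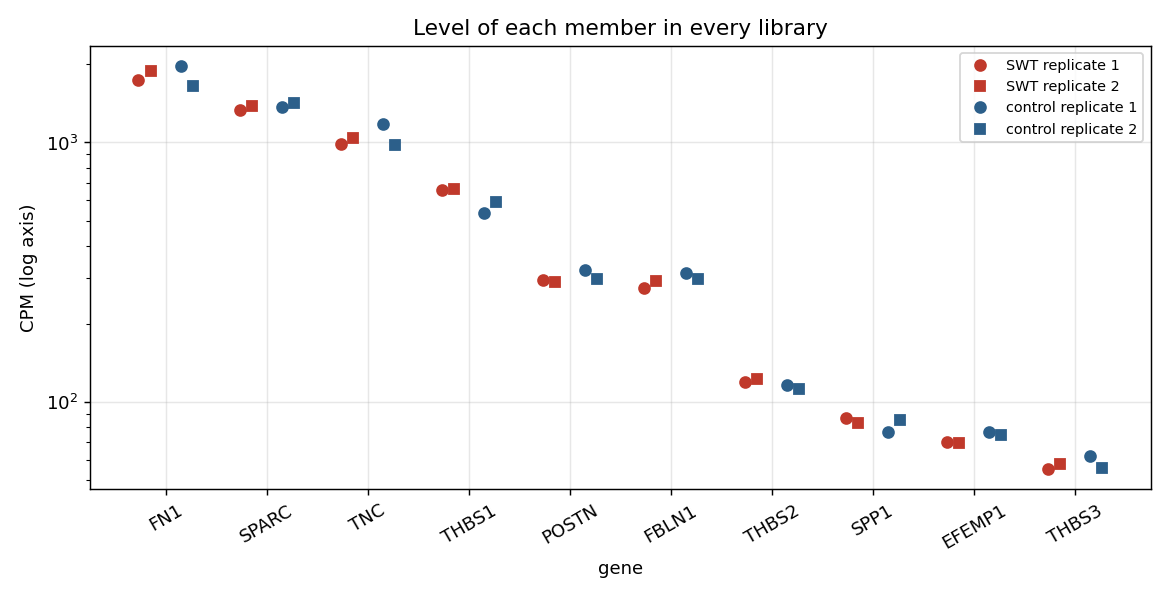
CPM (log axis) of each of the 10 genes in the 2 SWT libraries (red, left) and the 2 control libraries (blue, right), with circles for replicate 1 and squares for replicate 2. Genes run by mean CPM over the 4 libraries, and the libraries of a gene lie close together compared with the distance between the highest gene, FN1, and the lowest, THBS3.

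No gene passed the test between SWT and control. With edgeR's quasi-likelihood test and Benjamini-Hochberg adjustment over 12399 genes, 0 were higher and 0 lower in SWT (0% of genes tested in either direction), with 715 at an unadjusted p under 0.05. DESeq2 and limma-voom also called 0, with 116 of 17737 and 721 of 12399 genes at an unadjusted p under 0.05. Among the 10 genes, 4 lay above 0 and 6 below. Their median log2 fold change was -0.053, beside -0.00078 over all genes tested. The 95% intervals of all 10 lay within 0.5 log2 units of 0, and 9 of the 10 included 0. THBS1 and THBS2 were higher in both SWT libraries than in both controls (2 of 10 genes, where 17.3% of all genes tested did so), and POSTN, FBLN1 and EFEMP1 were lower (3 of 10, where 18% did so). The other 5 genes overlapped between the groups.

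The thrombospondin genes differed in level and by how far the groups lay apart. THBS1 (chromosome 15, 39581079 to 39599466, plus strand), which encodes the trimeric thrombospondin 1, had 656 and 663 CPM in SWT, against 535 and 591 CPM in control. Both SWT libraries lay above both controls, and the SWT libraries were close to each other while the controls were not. Its log2 fold change was 0.23 (SE 0.055, 95% interval 0.11 to 0.35, edgeR adjusted p = 0.759), which is 1.17-fold, and its unadjusted p of 0.000622 held rank 10 of the 12399 genes. Its adjusted p ranged from 5.11e-07 to 1.00 over the alternatives. The call passed without control replicate 2 (log2 fold change 0.30, edgeR adjusted p = 5.11e-07, where 0.835% of genes were called higher) and with all 4 libraries but no filter on low counts (0.23, edgeR adjusted p = 0.00478, where 0.113% were called higher). Without control replicate 1 the log2 fold change was 0.16. Where 1 library is left out, its group has a single sample, and that sample is taken to vary as the samples of the other group do. With the trend of each library in length and GC content removed, THBS1 stood at 0.20.

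THBS2 (chromosome 6, 169215780 to 169254044, minus strand), the other trimeric thrombospondin, had 119 and 123 CPM in SWT and 116 and 113 CPM in control. The SWT libraries lay above the controls by a small margin, and the log2 fold change was 0.08 (SE 0.061, 95% interval -0.048 to 0.21, edgeR adjusted p = 0.910). THBS3 (chromosome 1, 155195588 to 155209051, minus strand), a pentameric thrombospondin, had 55.4 and 57.6 CPM in SWT and 62.1 and 55.6 CPM in control, so the groups overlapped. Its log2 fold change was -0.06 (SE 0.076, edgeR adjusted p = 0.941) and turned to 0.025 without control replicate 1. The gene overlaps MTX1 on the opposite strand, which had 288 to 332 counts, and the strand setting of the counting is not given in the sources used here. THBS4 had 3 and 4 counts in SWT and 4 and 4 in control, and the remaining family gene, COMP, had 0 in all 4 libraries, which allows up to 0.258 to 0.303 CPM. THBS1 made up 79.0% (95% exact Clopper-Pearson interval 78.1% to 79.8%) and 78.6% (77.8% to 79.4%) of the counts of THBS1, THBS2 and THBS3 in SWT, against 75.0% (74.0% to 75.9%) and 77.8% (76.9% to 78.8%) in control. Both SWT shares lay above both control shares, although the interval of control replicate 2 overlapped those of both SWT replicates. These intervals cover counting error only.

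The promoters of the members were searched for short motifs. Those of THBS1 and THBS2 are described because these 2 genes were the members whose SWT libraries lay above both controls, and that of THBS1 is shown. Each is the 250 bases before the RefSeq start on GRCh38.p14, read 5′ to 3′ on the gene's strand, with capitals for matches on either strand to 5 motifs. These were GGGCGG, known as a site of SP factors, the TEAD site GGAATG, the SMAD site CAGACA, the start-site element TATAAA and, for the AP-1 factor, the palindrome TGANTCA. The THBS2 window overlaps annotated first exons of that gene, so only its matches are given.
THBS1 at chr15:39580829-39581078, plus strand: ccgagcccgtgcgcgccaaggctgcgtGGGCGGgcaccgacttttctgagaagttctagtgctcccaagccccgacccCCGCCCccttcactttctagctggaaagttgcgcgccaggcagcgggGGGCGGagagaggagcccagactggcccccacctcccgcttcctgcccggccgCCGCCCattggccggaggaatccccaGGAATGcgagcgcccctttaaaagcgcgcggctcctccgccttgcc
The THBS1 window held 4 matches to GGGCGG and 1 to GGAATG, and the THBS2 window held 2 to GGAATG, 2 to CAGACA and 1 to TATAAA. In the THBS1 window no match overlapped another. Promoters were matched for 9 of the 10 genes (not EFEMP1), and of these GGAATG occurred in 3, GGGCGG in 5, CAGACA in 3, TGANTCA in 1 and TATAAA in 2. Among all 35116 promoters of the same length in the table the shares were 11.9% for GGAATG, 42.6% for GGGCGG, 13.6% for CAGACA, 6.57% for TGANTCA and 10.7% for TATAAA. GC content was 69.6% in the THBS1 window and 60.0% in the THBS2 window.

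Fibronectin and tenascin C differed more between the 2 controls than between SWT and control. FN1 (chromosome 2, 215360440 to 215436172, minus strand) had 1746 and 1892 CPM in SWT and 1968 and 1649 CPM in control, so both SWT libraries lay between the controls. Its log2 fold change was 0.01 (SE 0.064, 95% interval -0.13 to 0.14, edgeR adjusted p = 0.997), against a log2 difference of -0.26 between control replicate 2 and control replicate 1. It stood at 0.14 without control replicate 1, and the sign turned without control replicate 2 (-0.11) and without SWT replicate 2 (-0.050). TNC (chromosome 9, 115019578 to 115118257, minus strand), an adhesion-modulating hexamer, had 983 and 1039 CPM in SWT and 1174 and 975 CPM in control. The SWT libraries again lay between the controls, and the log2 fold change was -0.09 (SE 0.066, 95% interval -0.23 to 0.051, edgeR adjusted p = 0.907). It was called lower without control replicate 2 (-0.22, edgeR adjusted p = 0.000483, where 0.764% of genes were called lower; range over the alternatives 0.000483 to 1.00) and stood at 0.05 without control replicate 1. Exact Poisson intervals of the 2 controls did not overlap for THBS1, TNC, POSTN and FN1, and those of the 2 SWT libraries did not for TNC and FN1. How many of all genes had such gaps was not computed. For FN1 the intervals were 1943 to 1994 CPM in control replicate 1 and 1624 to 1675 CPM in control replicate 2.

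Among the collagen-binding and bone-associated proteins, POSTN lay lower in SWT by value, while SPARC and SPP1 overlapped between the groups. SPARC (chromosome 5, 151661096 to 151687165, minus strand), a collagen-binding glycoprotein, had 1333 and 1375 CPM in SWT and 1374 and 1417 CPM in control. It varied least of the 10 genes, by 2.51% (coefficient of variation over 4 libraries), and its log2 fold change was -0.04 (SE 0.045, 95% interval -0.14 to 0.051, edgeR adjusted p = 0.930). Fits without 1 library ranged from -0.066 to -0.020. POSTN (chromosome 13, 37562583 to 37598844, minus strand), which encodes the integrin ligand periostin, had 295 and 289 CPM in SWT and 321 and 298 CPM in control. Both SWT libraries lay below both controls, with SWT replicate 1 close to control replicate 2, and the log2 fold change was -0.09 (SE 0.057, edgeR adjusted p = 0.893). Its value was -0.14 where control replicate 2 was left out, and -0.029 with control replicate 1 left out. SPP1 (chromosome 4, 87975650 to 87983426, plus strand), which encodes the phosphoprotein osteopontin, had 87.0 and 83.1 CPM in SWT and 76.5 and 85.4 CPM in control. Only control replicate 1 stood below the other 3 libraries, and the log2 fold change was 0.07 (SE 0.071, edgeR adjusted p = 0.928), or -0.0062 without that library.

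FBLN1 and EFEMP1, the fibulin genes among the 10, were lower in the SWT libraries than in the controls by value, without passing the test. FBLN1 (chromosome 22, 45502238 to 45601135, plus strand), encoding fibulin 1 of basement membranes and elastic fibres, had 274 and 293 CPM in SWT and 313 and 299 CPM in control. The groups did not overlap, though SWT replicate 2 and control replicate 2 were close, and the log2 fold change was -0.11 (SE 0.057, 95% interval -0.23 to 0.011, edgeR adjusted p = 0.845). EFEMP1 (chromosome 2, 55865967 to 55924139, minus strand), encoding fibulin 3, had 70.2 and 69.6 CPM in SWT and 76.8 and 74.9 CPM in control. Here the libraries of each group lay close together, and the log2 fold change was -0.12 (SE 0.067, 95% interval -0.26 to 0.023, edgeR adjusted p = 0.870). Fits without 1 library ranged from -0.16 to -0.063 for FBLN1 and from -0.13 to -0.098 for EFEMP1. The other fibulin genes tested did not all lie on that side of 0. EFEMP2, encoding fibulin 4, stood at -0.10 on the log2 scale (54.5 and 53.1 CPM in SWT, 57.1 and 58.5 CPM in control, edgeR adjusted p = 0.900). FBLN5, encoding fibulin 5, had 5.76 and 5.84 CPM in SWT (58 and 68 counts) and 4.91 and 4.86 CPM in control (57 and 48 counts). Its SWT libraries lay above both controls in CPM, at a log2 fold change of 0.25 (95% interval -0.15 to 0.64, edgeR adjusted p = 0.910). FBLN7 had 13 and 14 counts in SWT and 14 and 6 in control, with a log2 fold change of 0.42 (edgeR adjusted p = 0.930). HMCN1, also named fibulin 6, had 211 and 283 counts in SWT and 314 and 175 in control, at 0.0064 on the log2 scale.

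**Figure D2:**
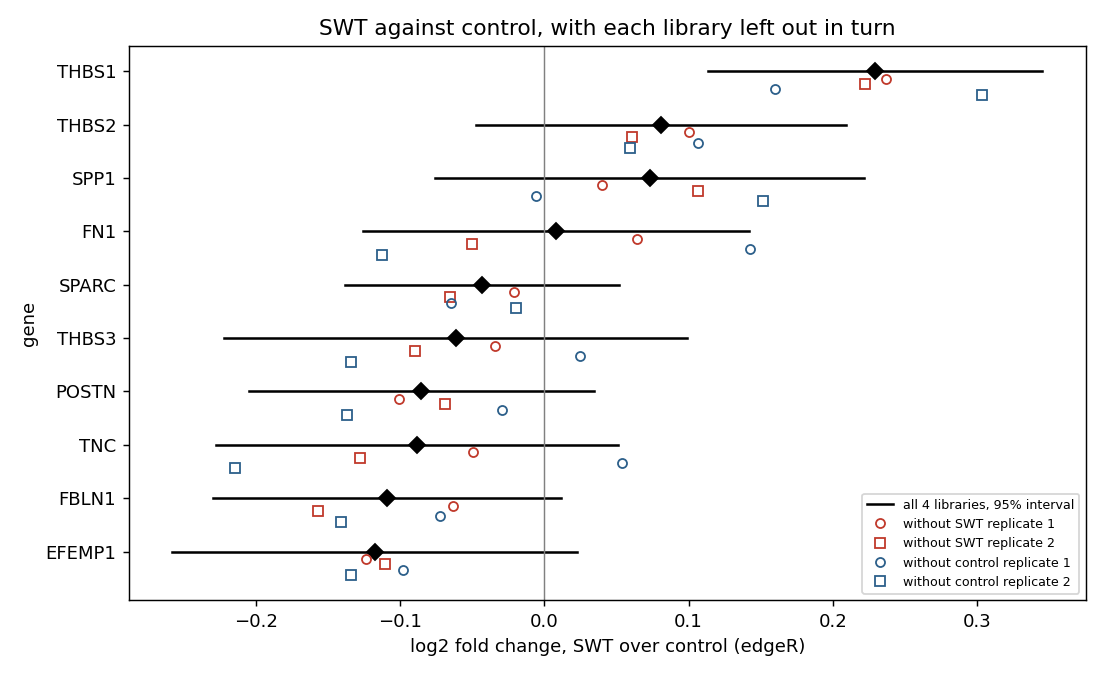
Log2 fold change of SWT over control for each gene (x axis) from all 4 libraries (black diamonds, with 95% intervals as lines) and from the fits without each library (open symbols). The interval of THBS1 lies to the right of 0, and the other 9 cross it. The fits that leave out control replicate 1 and control replicate 2 lie farthest apart for TNC and FN1.

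The deviation of each library from the gene's mean showed where the members parted. In control replicate 1, 8 of the 10 genes deviated by more than 0.05 log2 units; TNC stood highest at 0.18, and THBS1 lowest at -0.19 with SPP1 at -0.12. In control replicate 2, FN1 stood at -0.13 and TNC at -0.09, while SPARC and SPP1 stood at 0.04. The controls differed by more than the groups did for 6 of the 10 genes, and the SWT libraries did so for 2. A difference between single libraries varies more than a difference between group means, so these counts are not read as a trait of the members. In control replicate 2, 7 genes were lower than in control replicate 1, and 7 genes were higher in SWT replicate 2 than in SWT replicate 1. The shares over all genes tested were not computed for the counts in this paragraph. The part that the GC trend between libraries plays in these deviations was not tested beyond the fit with that trend removed, in which FN1 stood at -0.034 and TNC at -0.07.

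**Figure D3:**
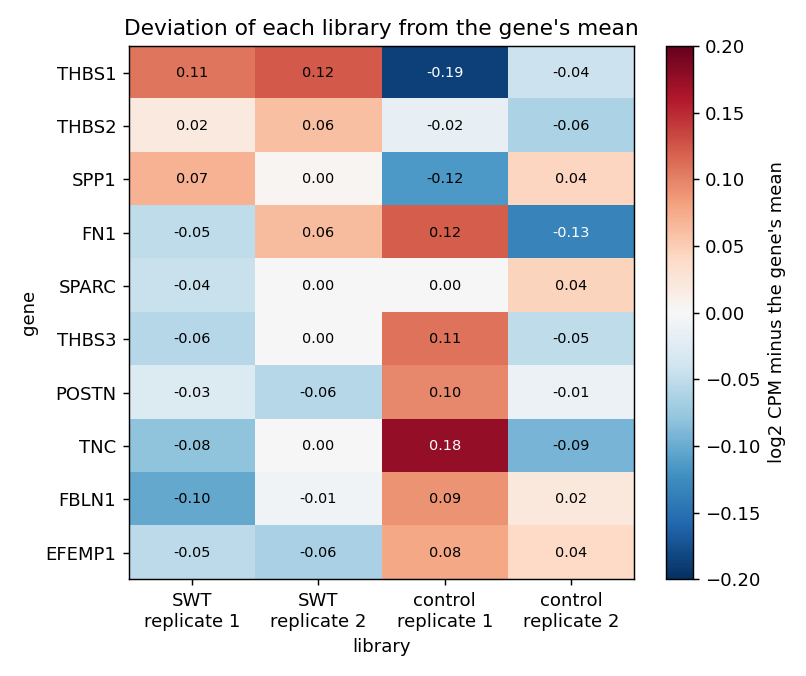
Log2 CPM of each library minus the gene's mean over the 4 libraries (colour and printed values), with the SWT libraries in the left columns and the control libraries in the right ones. THBS1 is positive in both SWT columns (0.11 and 0.12) and negative in both control columns, while control replicate 1 holds the most extreme values, 0.18 for TNC and -0.19 for THBS1.

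Other matricellular and elastic-fibre associated genes did not pass the test either. Of 31 genes, 17 were tested, 9 lay above 0 and 8 below, and their median log2 fold change was 0.0064. In this list 6 genes (COMP, SMOC2, TNXB, TNR, TNN and WISP1) had 0 counts in all 4 libraries. Of the tenascin genes, TNC was therefore the only one of the 4 looked up here (TNC, TNXB, TNR and TNN) with a count. CTGF, a CCN family protein gene, had 244 and 249 CPM in SWT and 164 and 222 CPM in control, and its log2 fold change was 0.36 (SE 0.092, edgeR adjusted p = 0.769). CYR61, its close relative, had 506 and 510 CPM in SWT and 367 and 465 CPM in control, and stood at 0.29 on the log2 scale (SE 0.077, edgeR adjusted p = 0.821). Both showed the layout of THBS1, with close SWT libraries above 2 controls of which replicate 1 was lower, and without control replicate 1 they stood at 0.15 and 0.13. CTGF was called higher without SWT replicate 1 (edgeR adjusted p = 0.0225, where 0.0393% of genes were called higher), and with no filter both genes were (edgeR adjusted p = 2.73e-06 for CTGF and 7.12e-05 for CYR61). DCN, the small proteoglycan decorin, had 17 and 21 counts in SWT and 22 and 53 in control, with a log2 fold change of -1.01 (edgeR adjusted p = 0.838) that was -0.11 without control replicate 2. It was called lower without control replicate 1 (-1.61, edgeR adjusted p = 0.000461, where 0.501% of genes were called lower). SPARCL1, a relative of SPARC that was too low to be tested, had 3 and 1 counts in SWT and 0 and 47 in control. The high values of DCN and SPARCL1 fell in the library with 309 CPM of heart muscle markers, and the part of heart muscle RNA in these values was not tested.

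Receptors and binding partners were present at many levels and none passed the test. Of 26 genes, 20 were tested, with 8 above 0 and 12 below, and their median log2 fold change was -0.019. ITGA6, an integrin laminin receptor subunit, had 396 and 385 CPM in SWT and 353 and 367 CPM in control, which is 0.12 on the log2 scale (SE 0.053, edgeR adjusted p = 0.843). ITGA4, a subunit of fibronectin-binding integrins, stood at 0.08 and NLGN1, a postsynaptic adhesion gene whose product binds thrombospondin 1 in rodent neurons, at -0.40 (edgeR adjusted p = 0.893 and 0.843). NLGN1 stood at -0.20 without SWT replicate 1 and at -0.67 without SWT replicate 2. The thrombospondin receptor gene CD47 had 746 and 775 counts in SWT and 804 and 719 in control, while CD36 had 2 and 1 in SWT and 3 and 11 in control. CACNA2D1, the neuronal calcium channel subunit through which astrocyte thrombospondins act in rodents, had 522 and 587 counts in SWT and 572 and 457 in control, with a log2 fold change of 0.09 (SE 0.076).

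Processing and matrix assembly enzymes had 12 of 17 genes tested, 5 above 0 and 7 below, and their median was -0.032 on the log2 scale, with 0 called. MMP2, a gelatinase, had 566 and 626 CPM in SWT and 688 and 635 CPM in control, and its log2 fold change was -0.15 (SE 0.058, edgeR adjusted p = 0.838). It was -0.080 without SWT replicate 1, -0.22 without SWT replicate 2, -0.089 without control replicate 1 and -0.20 without control replicate 2. PLAU, the urokinase gene, stood at 0.09 (-0.0068 without control replicate 1), and TGM2, which cross-links fibronectin, at -0.07 (edgeR adjusted p = 0.893 for both). TGM2 stood at -0.035 without SWT replicate 1, -0.11 without SWT replicate 2, -0.019 without control replicate 1 and -0.12 without control replicate 2. TGF-beta ligands and responsive genes had 16 of 17 tested, 5 above 0 and 11 below, a median of -0.087, and 0 called. The collagen genes COL1A1 and COL3A1 stood at -0.14 and -0.15 (edgeR adjusted p = 0.838 for both), and at -0.037 and -0.021 without control replicate 1. Without control replicate 2, CTGF stood at 0.59, CYR61 at 0.47, PLAU at 0.20, COL1A1 at -0.24 and COL3A1 at -0.27. In that fit control replicate 1 was the only control. For genes outside the 10 members, only the values of fits without 1 library are given, not which of them passed.

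**Figure D4:**
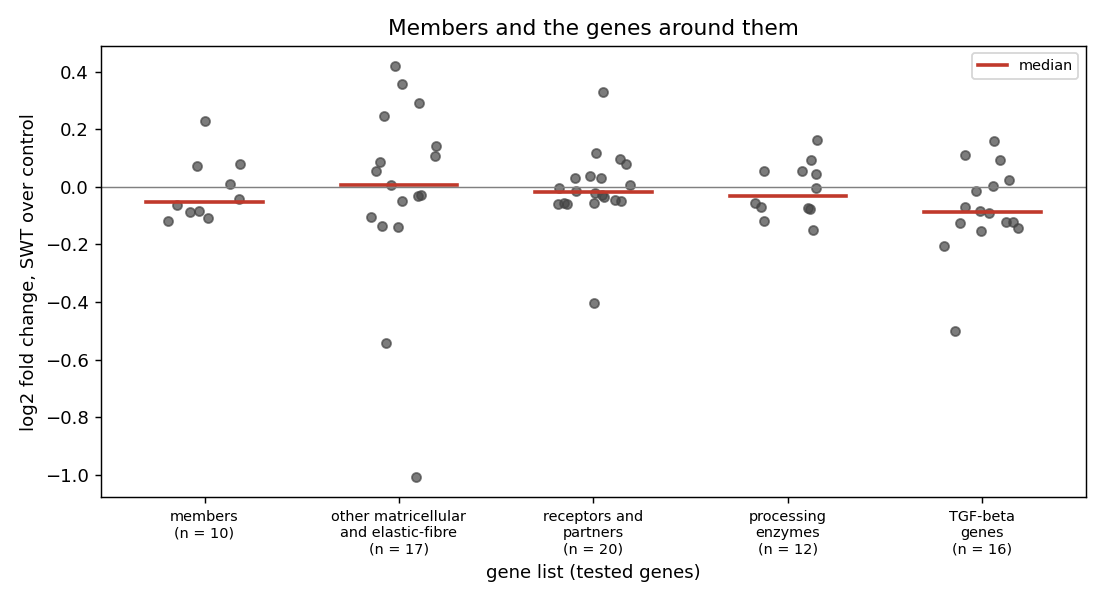
Log2 fold change of SWT over control (y axis) for the 10 members and for the tested genes of 4 lists around them, each point a gene and each red bar the median. The medians lie between -0.087 and 0.0064, and the points below -0.4 are COL1A2, NLGN1, NOV and DCN.

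The genes whose pattern over the 4 libraries lay nearest to that of THBS1 were SMURF2, N4BP2 and IFI44, with Euclidean distances of 0.024, 0.029 and 0.031 log2 units between centred log2 CPM values. They were taken from 9288 tested genes with a mean of at least 10 CPM. SMURF2, which encodes a ubiquitin ligase, had 119 and 120 CPM in SWT and 97.8 and 109 CPM in control. On the log2 scale SMURF2 stood at 0.21 (SE 0.066, edgeR adjusted p = 0.838). Without control replicate 2 the value was 0.29, and without control replicate 1 it was 0.13. With 4 libraries such a likeness is a description only.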

How the data were processed

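Counts per gene symbol were deposited by the authors, unnormalised, for 28058 genes. A second deposited table holds log2 values for 17151 genes, taken as they stand. The submitters' processing notes name Trimmomatic 0.36, FastQC 0.11.5, STAR 2.5.3a, HTSeq, DESeq2 and the build hg38, but not what each was used for. The annotation and strand setting of the counting are not given in the sources used here. Per the labels' protocols, the library kit was stranded and poly(A)-selecting. Samples were grouped by their titles.

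Counts were tested with edgeR 4.0.16 (R 4.3.3): TMM factors from 0.997 to 1.004, filterByExpr, the quasi-likelihood F-test and Benjamini-Hochberg adjustment over 12399 genes at 0.05. The biological coefficient of variation was 4.32%. Standard errors were derived from the log2 fold change and its F statistic, so the intervals are approximate. CPM uses TMM-scaled library sizes. The fit was tested on simulated data. Between 9888263 and 11686808 counts per library set the precision. Exact Poisson intervals and the floor of 3 counts (95% level) cover counting error only.

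Coordinates and lengths come from GENCODE release 29 (GRCh38) by symbol, promoters from RefSeq. Each list of genes was described by counts and its median. Members and lists were chosen with earlier results of these data known. Named are the 10 members, of each list the 3 tested genes with the smallest p, and the 3 genes nearest to THBS1; others were chosen after their values were seen, and a gene that the rule names is not reported here. Alternatives were DESeq2 size factors, upper-quartile factors, a filter at a mean count of 50 or none, a replicate block, fits without 1 library, DESeq2 1.42.0, limma-voom, limma 3.58.1 on the deposited log2 values, removal of length and GC trends (known for 97.4% of genes), a threshold of 0.1 and other lengths. A crossed pairing and summed exon length were added after the data were seen.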

Additional observations from a re-analysis of the deposited data

How the results depend on the processing

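The log2 fold changes of THBS1, THBS2, SPARC, POSTN, FBLN1 and EFEMP1 kept their direction under all 13 alternatives run. With no filter THBS1 passed at 0.23, and with the length and GC trend removed FN1 stood at -0.034 against 0.01. Fits without 1 library ranged from 0.16 to 0.30 for THBS1, -0.22 to 0.054 for TNC, -0.11 to 0.14 for FN1, -0.13 to 0.025 for THBS3 and -0.0062 to 0.15 for SPP1. The cause of these changes was not tested. Over all genes, no filter gave 20 higher and 43 lower, fits without 1 library gave 2 to 106 higher and 15 to 97 lower, removal of the length and GC trend gave 1 higher (ID1), and the replicate block gave 1 lower (MYH6). Under the replicate block THBS1 stood at 0.23 (edgeR adjusted p = 0.791), and no call on the 10 genes changed. The deviations of same-numbered libraries correlated at -0.264. The GC trends of replicate 2 minus 1 ran opposite ways (rho -0.483 in control, 0.382 in SWT). The correlation therefore cannot tell whether the numbers mark pairs. A crossed pairing, chosen after the data were seen, gave 55 genes higher and 42 lower. Other settings called 0 genes. With 2 samples a group, the 95% intervals of 9 of the 10 genes included 0.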

Other observations

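Collagen type I chains were unequal in these libraries: COL1A1 had 27617 and 35086 counts in SWT and 39389 and 29209 in control, whereas COL1A2 had 27 and 26 in SWT and 28 and 46 in control. The fibrillin genes FBN1 and FBN2, which build the microfibrils that fibulins bind, were both present, with 4778 and 5963 counts of FBN1 in SWT and 6170 and 4115 in control. ELN, the elastin gene, had 2 and 0 counts in SWT and 3 and 5 in control. TGFBI, an RGD-bearing matrix protein gene, had 18991 and 24992 counts in SWT and 24099 and 20146 in control, with a log2 fold change of -0.03.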
